A study of Mus musculus with 6 samples.

Results

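Stage 0 iNKT cells are the first CD1d-restricted precursors found after positive selection in the thymus, and 6 genes of their NK-like effector programme were followed here, out of 48397 genes in the count table. These are Xcl1, Fcer1g, Crtam, Nkg7, Klrb1c and Gzma. They were taken by symbol and chosen from the read counts of these same libraries, with their values in both genotypes known. Their difference between the genotypes is therefore given as a description without a test. RNA from BALB/c (WT) mice and from SKG mice, which carry a hypomorphic Zap70 allele on the same BALB/c background, was sequenced as 3 libraries per genotype. Each library came from about 1000 sorted cells (PBS57-CD1d tetramer+, CD24+, CD69+, CD44-, CD8- and low or negative for CD4) out of thymi pooled from 3 mice, which were 8 to 10 weeks old. No treatment was given, so the Zap70 allele is the labelled difference between the groups, and a replicate is a pool of mice. Because the SKG mutation changes an amino acid of Zap70, counts per gene cannot show it.

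iNKT cells share many genes with natural killer cells. They acquire NK receptors, granule proteins and a fast cytokine response in the thymus, and this programme is best known from the mature iNKT1 subset, where the T-box factor T-bet drives it. Xcl1 is a secreted chemokine that attracts dendritic cells bearing its receptor Xcr1. Crtam is a surface protein of activated cytotoxic lymphocytes that binds Cadm1. Klrb1c encodes NKR-P1C, the NK1.1 antigen of C57BL/6 mice, and Fcer1g encodes the FcR gamma chain, an ITAM adaptor through which NKR-P1C and Fc receptors signal. Nkg7 is a membrane protein of cytotoxic granules, and Gzma is the serine protease granzyme A.

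The libraries were of similar depth, with 37176544 to 43115544 reads counted on genes. Genes with 10 or more reads were less evenly numbered, at 11415, 11830 and 14339 for BALB/c replicates 1 to 3 and 14791, 12287 and 10835 for SKG replicates 1 to 3. The sorted identity was visible in every library, since Cd3e had at least 33039 reads, Cd69 at least 6120, Egr2 at least 17840 and Zbtb16, which encodes PLZF, at least 3358. Cd24a, the marker of the immature gate, had 2161, 271 and 703 reads in BALB/c replicates 1 to 3. In SKG replicates 1 to 3 it had 1284, 3443 and 3281 reads. The genotypes overlapped, and the lowest values were those of BALB/c replicates 2 and 3. BALB/c replicate 1 stood apart in markers of CD8 lineage and double-positive thymocytes, whose summed level was 394 CPM there and between 38.2 and 151 CPM in the other 5 libraries. CPM is the number of reads of a gene per 1000000 reads on the genes tested, after TMM scaling.

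All members are protein-coding genes of GRCm38. Xcl1 (ENSMUSG00000026573.7) lies on chromosome 1 from 164931644 to 164935527 on the minus strand and Fcer1g (ENSMUSG00000058715.11) on the same chromosome and strand from 171229572 to 171234365. Klrb1c (ENSMUSG00000030325.16) is on chromosome 6 from 128778485 to 128789215, minus strand, within the cluster of NK receptor genes. Nkg7 (ENSMUSG00000004612.9) is on chromosome 7 from 43437073 to 43438249, plus strand. Crtam (ENSMUSG00000032021.14) is on chromosome 9 from 40969691 to 41004628 and Gzma (ENSMUSG00000023132.8) on chromosome 13 from 113093825 to 113100981, both on the minus strand. Their merged exons span 523 nt for Xcl1, 874 nt for Fcer1g, 914 nt for Nkg7, 1006 nt for Gzma, 2961 nt for Klrb1c and 5131 nt for Crtam.

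The bases before the start sites of Xcl1, Fcer1g, Nkg7 and Gzma are shown because the first 3 of these genes were lower in every SKG library and Gzma was not. They come from RefSeq promoter windows (GRCm38.p6, 250 bases before to 50 after a start site), written 5′ to 3′ on the strand of the gene and ended before the first base that GENCODE or RefSeq places in the gene. Capitals mark the Runx letters TGTGGT, or ACCACA on the other strand, and the T-box letters GGTGTGA, or TCACACC on the other strand. The stretches are chr1:164935528-164935772 for Xcl1, chr1:171234366-171234599 for Fcer1g, chr7:43436888-43437072 for Nkg7 and chr13:113100982-113101231 for Gzma.
Xcl1: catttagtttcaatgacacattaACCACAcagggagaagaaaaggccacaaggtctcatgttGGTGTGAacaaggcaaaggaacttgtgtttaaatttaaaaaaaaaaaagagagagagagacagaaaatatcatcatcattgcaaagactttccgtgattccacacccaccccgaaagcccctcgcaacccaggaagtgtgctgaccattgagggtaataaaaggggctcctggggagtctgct
Fcer1g: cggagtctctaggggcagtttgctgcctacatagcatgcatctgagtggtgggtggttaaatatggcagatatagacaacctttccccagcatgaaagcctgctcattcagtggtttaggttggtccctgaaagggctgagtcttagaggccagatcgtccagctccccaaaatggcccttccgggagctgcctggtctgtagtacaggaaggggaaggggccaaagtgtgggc
Nkg7: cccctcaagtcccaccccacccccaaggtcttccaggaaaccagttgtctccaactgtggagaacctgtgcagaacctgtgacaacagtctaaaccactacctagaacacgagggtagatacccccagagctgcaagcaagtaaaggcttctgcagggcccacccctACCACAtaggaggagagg
Gzma: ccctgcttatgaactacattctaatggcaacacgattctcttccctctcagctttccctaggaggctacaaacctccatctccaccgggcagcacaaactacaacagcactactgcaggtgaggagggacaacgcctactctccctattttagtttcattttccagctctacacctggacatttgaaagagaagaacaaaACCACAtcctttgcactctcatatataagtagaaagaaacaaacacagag

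Over the whole windows of 300 bases, which 5 members have, the Runx letters were present in all 5 (Xcl1, Fcer1g, Nkg7, Klrb1c and Gzma), against 16.8% of 32851 windows in the RefSeq table. The match of Fcer1g lies after its start site and so is not among the bases printed. The T-box letters were in the windows of Xcl1 and Nkg7, against 3.98% of all windows, and the match of Nkg7 lies inside the gene as GENCODE draws it. The NFAT letters TGGAAA (or TTTCCA) were found for Gzma and for no other member (21.4% of all windows), and the AP-1 letters TGANTCA (7.81%) and the Egr letters GCGNGGGCG (or CGCCCNCGC, 5.55%) for 0 of the 5. Both strands were searched. The Runx and T-box letters can share bases, but did not do so in these windows. A match of letters does not show binding, and the Runx letters were shared by members that differed between the genotypes and members that overlapped. Crtam has no window.

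Xcl1 and Crtam, the chemokine and the adhesion receptor of activated lymphocytes, were both lower in SKG cells, at very different levels. Xcl1 was counted with 45, 70 and 12 reads in BALB/c replicates 1 to 3 and with 1, 0 and 1 reads in SKG replicates 1 to 3. Triplets of values are given in this order throughout. Each BALB/c library was above each SKG library, although BALB/c replicate 3 fell to less than the other BALB/c pools. Its level was 1.08 ± 0.811 CPM in BALB/c (SD, n = 3) and 0.0175 ± 0.0152 CPM in SKG (SD, n = 3). Summed over libraries, 127 reads stood against 2, a ratio of 59.3 with an exact 95% interval from 16.1 to 495 that covers counting error only. For SKG replicate 2, the library without a read, the exact 95% interval reached up to 0.0949 CPM. Reads copied by PCR are counted like any others, so the number of molecules behind the 127 reads is unknown. On the log2 CPM scale with a prior count of 2, the difference of the means (SKG minus BALB/c) was -3.74 (standard error 0.80), or -4.45 without BALB/c replicate 3 and -3.19 without BALB/c replicate 2. Of the 50-nt words of Xcl1 transcripts, 10.8% lie in Gm20743, a gene on the opposite strand with overlapping exons, which had 0 reads in every library. Reads were counted without strand, so this 0 does not show how reads of the shared stretch were assigned.

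Crtam was the most abundant member and varied least among pools. It had 4886, 3793 and 3483 reads in BALB/c against 2040, 1493 and 1389 in SKG. The groups did not overlap, and the lowest BALB/c library was at 77.1 CPM against 50.6 CPM in the highest SKG library. The means were 99.3 ± 20.8 CPM (SD, n = 3) in BALB/c and 42.5 ± 7.06 CPM (SD, n = 3) in SKG, a ratio of 2.34. The difference of mean log2 CPM was -1.21 (standard error 0.22), and with any 1 library left out it lay between -1.38 and -1.07. In these bulk libraries, fewer cells with a transcript and less RNA per cell cannot be told apart, and this holds for each member.

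Fcer1g, the ITAM adaptor, was readily counted in BALB/c cells and lower but present in SKG cells. Its reads numbered 517, 385 and 441 in BALB/c and 90, 52 and 175 in SKG. The BALB/c pools lay close together, whereas the SKG pools spanned a wider range and stayed below them. This corresponds to 10.9 ± 1.45 CPM (SD, n = 3) in BALB/c and 2.80 ± 1.82 CPM (SD, n = 3) in SKG, with BALB/c 3.89 times higher. The difference of mean log2 CPM was -2.13 (standard error 0.54) and lay between -2.60 and -1.69 with any 1 library left out.

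Klrb1c, the receptor that signals through Fcer1g, was detected in 3 of the 6 pools. It had 0, 86 and 175 reads in BALB/c against 0, 27 and 0 reads in SKG. The groups overlapped, because BALB/c replicate 1 had no read and so lay below SKG replicate 2. Its means were 2.06 ± 1.95 CPM (SD, n = 3) in BALB/c and 0.232 ± 0.401 CPM (SD, n = 3) in SKG, with spreads about as large as the means or larger. With 0 reads, the exact 95% interval reached up to 0.0894 CPM in BALB/c replicate 1 and up to 0.102 CPM in SKG replicate 3. The difference of mean log2 CPM (-2.65, standard error 2.37) went from -4.61 without BALB/c replicate 1 to -1.47 without BALB/c replicate 3. Part of its sequence is not its own, since 17.0% of the 50-nt words of its transcripts, the length of a read, also occur in transcripts of other genes (Klrb1a, Klrb1b, Klrb1-ps1 and Gm44511). Klrb1a, its neighbour in the cluster, had 0, 130 and 576 reads in BALB/c against 33, 155 and 0 in SKG, and Klrb1b and Gm44511 had 0 in all libraries. Exons of Gm44511 overlap those of Klrb1c on the same strand, so the 0 of Gm44511 does not show how shared reads were assigned. The reads came from BALB/c mice and were aligned to a C57BL/6J genome, and how far the alleles of this cluster differ was not tested, so counts of Klrb1c are uncertain.

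Nkg7, the granule membrane protein, was among the clearly expressed members in BALB/c cells. It had 362, 428 and 673 reads in BALB/c against 51, 0 and 112 in SKG. Every BALB/c pool was above every SKG pool, and the SKG pools ranged from no read to 3.10 CPM. The means were 11.7 ± 3.07 CPM (SD, n = 3) in BALB/c and 1.45 ± 1.56 CPM (SD, n = 3) in SKG, a ratio of 8.07. Because of the library without a read, the difference on the log2 scale depended on which SKG pool was used: it was -4.28 (standard error 1.83) with all libraries, -2.49 without SKG replicate 2 and -5.50 without SKG replicate 3.

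Gzma, the granzyme A gene, showed no separation of the genotypes. Its reads were 120, 1 and 91 in BALB/c and 1, 107 and 0 in SKG. Both genotypes held pools with many reads and pools with next to none, so the groups overlapped. The means were 1.65 ± 1.48 CPM (SD, n = 3) in BALB/c and 0.926 ± 1.58 CPM (SD, n = 3) in SKG. The difference of mean log2 CPM, -1.83 with a standard error of 2.49, was -3.66 when SKG replicate 2 was left out and -0.75 when SKG replicate 3 was. Such uneven detection was common in this experiment: of 11505 genes with at least 100 reads in 1 BALB/c library, 1610 (14.0%) had at most 1 read in another BALB/c library, and in SKG the same held for 1611 of 11397 genes (14.1%).

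**Figure D1:**
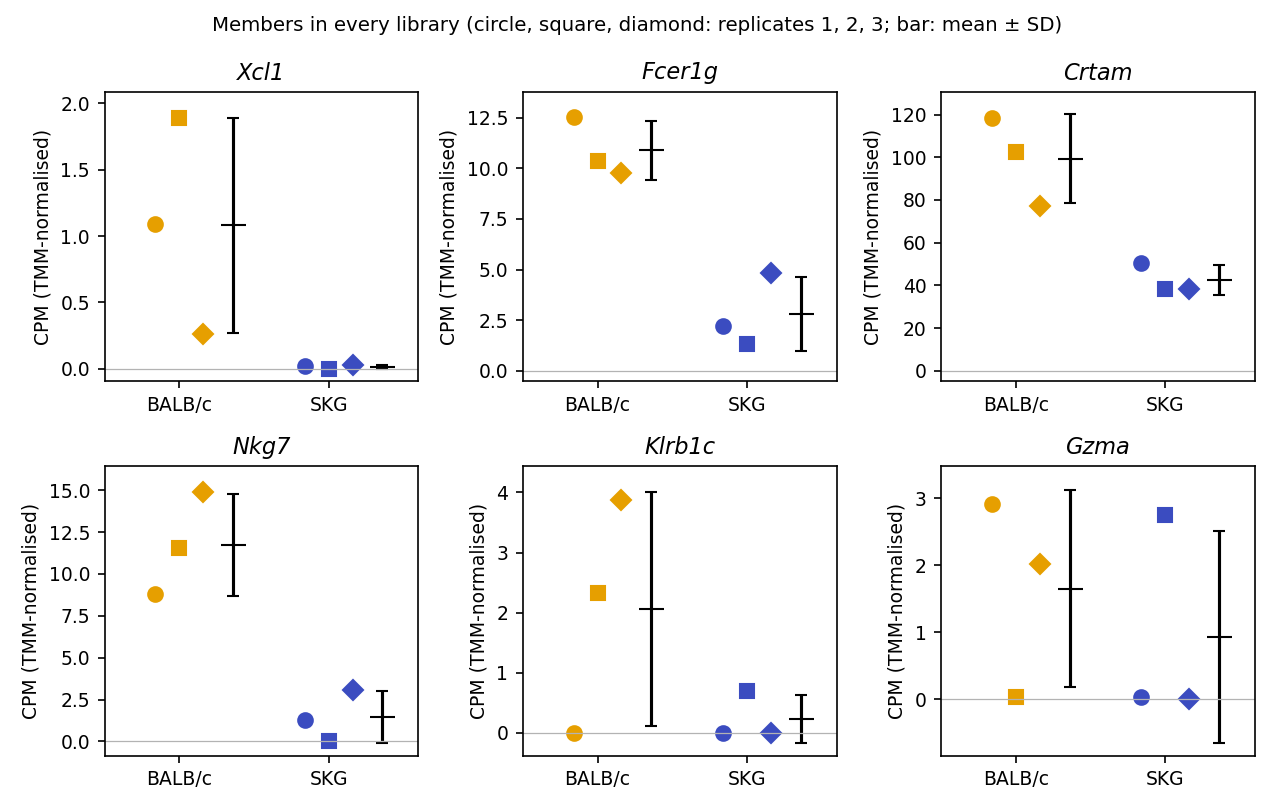
Level of each member in TMM-normalised CPM (vertical axes, each on its own scale) in the 3 BALB/c (orange) and 3 SKG (blue) libraries, with replicates 1, 2 and 3 as circle, square and diamond and the mean ± SD as a black bar. The BALB/c points lie above all SKG points for Xcl1, Fcer1g, Crtam and Nkg7, whereas those of Klrb1c and Gzma overlap, with Gzma at 2.75 CPM in SKG replicate 2 and at 0.0270 CPM in BALB/c replicate 2.

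Across the 6 members, 4 (Xcl1, Fcer1g, Crtam and Nkg7) had libraries that did not overlap between the genotypes and were lower in SKG. Among all 12312 genes tested, 7.12% were without overlap and lower in SKG. Since the members were chosen with this contrast in view, their count says nothing about the programme as a whole. All 6 members passed edgeR's filter on low counts. SKG replicate 2 and SKG replicate 3 each had 2 members at 0 reads, SKG replicate 1 and BALB/c replicate 1 each had 1, and the other BALB/c libraries had 0.

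To compare levels between genes, CPM was divided by the length of the merged exons in kilobases (RPKM). In BALB/c cells Crtam came first with 19.3 ± 4.06 RPKM (SD, n = 3), followed by Nkg7 with 12.8 ± 3.36 and Fcer1g with 12.5 ± 1.66. The last 2 could not be ordered, since their means differed by less than either spread, and Nkg7 was above Crtam in BALB/c replicate 3. Xcl1 (2.07 ± 1.55 RPKM), Gzma (1.64 ± 1.47) and Klrb1c (0.697 ± 0.658) formed a lower tier in BALB/c, and their order changed from pool to pool. In SKG cells Crtam was again first, at 8.28 ± 1.38 RPKM, and it led in each of the 3 SKG libraries. Fcer1g followed with 3.21 ± 2.08 RPKM and Nkg7 with 1.59 ± 1.70, whose means differed by less than the SD of Fcer1g, although Fcer1g was above Nkg7 in each of the 3 SKG libraries. Gzma was at 0.920 ± 1.57, Klrb1c at 0.0782 ± 0.135 and Xcl1 at 0.0334 ± 0.0291 RPKM. This order of means rests on SKG replicate 2, where Gzma and Klrb1c had nearly all their reads, since Xcl1 lay above both in SKG replicates 1 and 3. That placing rests on 1 read of Xcl1 in each, against 1 and 0 of Gzma and 0 of Klrb1c, and gives no firm order.

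**Figure D2:**
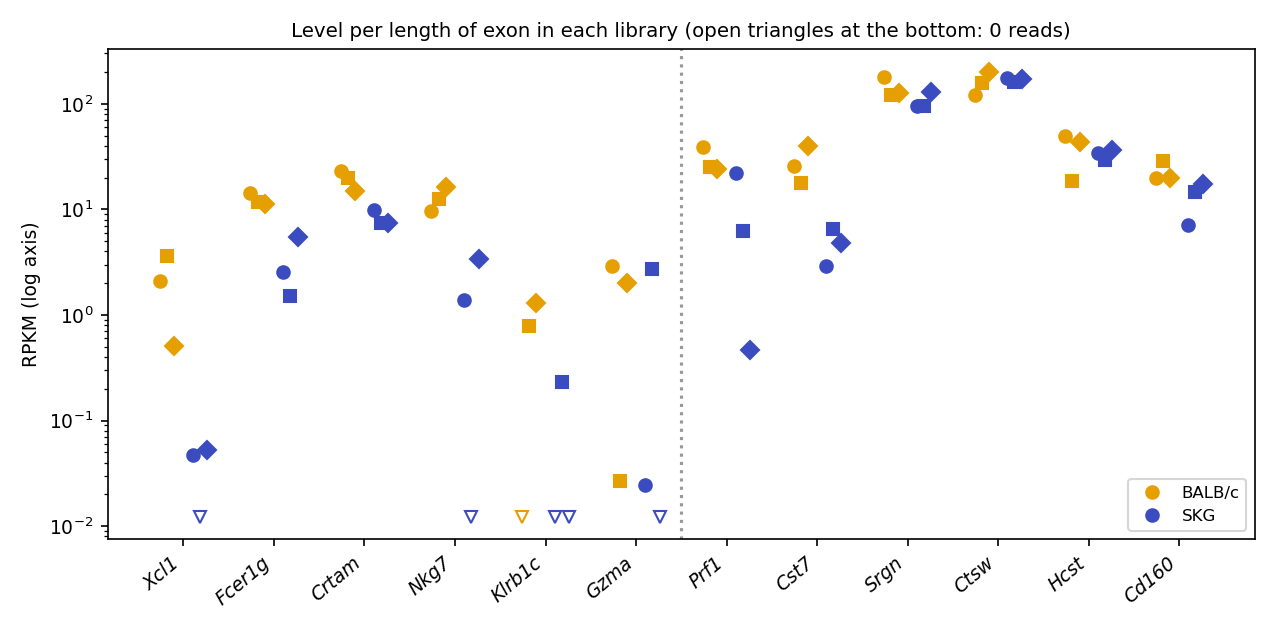
RPKM on a log axis of the 6 members (left of the dotted line) and of 6 related genes of granules and receptors, in each BALB/c (orange) and SKG (blue) library, with circle, square and diamond for replicates 1, 2 and 3 and open triangles at the bottom for libraries with 0 reads. Srgn and Ctsw lie above every member in both genotypes, and Prf1 reaches from 22.2 RPKM in SKG replicate 1 down to 0.471 RPKM in SKG replicate 3.

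A wider set of 121 genes was followed to describe the surroundings of the members: NK receptors, adaptors, granule genes, chemokines and cytokines, partners of Crtam, and transcription factors with cytokine receptors. Of these, 27 had no read in any library and 58 passed the filter. A gene was called where it changed by 1.5 times or more with an FDR below 0.1. By this rule edgeR's quasi-likelihood test called 0 of the 58 and 0% of all genes tested, and limma-voom called 0 of the 58. At an unadjusted p under 0.05 from edgeR there were 1 gene lower and 2 genes higher in SKG among the 58, and 293 and 378 among all genes tested. DESeq2 with shrunken fold changes called 1 gene lower (Cst7) and 1 higher (Runx3), beside 0.910% and 0.934% of all genes tested in these directions. Without shrinkage DESeq2 also called 1 lower and 1 higher of the 58, beside 1.10% and 1.17%. The libraries did not overlap for 4 genes that were lower in SKG and 2 that were higher, whereas among all genes tested 7.12% and 6.77% were so. The median difference of log2 CPM over the 58 genes was -0.05, close to the -0.04 of all genes tested.

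Among cytotoxic granule genes, 16 of 22 were tested. Cst7 encodes cystatin F, an inhibitor of the cathepsins that activate granzymes. It had 1041, 645 and 1779 reads in BALB/c against 116, 250 and 171 in SKG, with every BALB/c pool above every SKG pool. In edgeR the log2 fold change of Cst7 was -2.55 ± 0.69 (standard error), with an adjusted p of 0.722. DESeq2 without shrinkage gave it an adjusted p of 0.000255, so the tools differed on this gene. Prf1, the pore-forming perforin, had 4206, 2400 and 2843 reads in BALB/c against 2315, 630 and 44 in SKG, again without overlap, but the SKG pools spread widely, from 57.5 to 1.22 CPM (adjusted p = 0.988 from edgeR). The more abundant granule genes gave no such split. Serglycin (Srgn), the proteoglycan that packs granules, was at 314 ± 69.6 CPM (SD, n = 3) in BALB/c and 234 ± 42.3 CPM (SD, n = 3) in SKG, and cathepsin W (Ctsw) at 303 ± 76.7 and 321 ± 14.0 CPM. Gzmb, Gzmc, Gzmk and the death ligand Fasl had 0 reads in all 6 libraries, and Gzmm, the other granzyme listed, had 1, 0 and 4 reads in BALB/c against 103, 37 and 0 in SKG.

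Among the 30 NK receptors, 6 were tested and 10 had no read at all. Cd160, an Ig-superfamily receptor of NK cells, was at 60.2 ± 13.6 CPM (SD, n = 3) in BALB/c and 34.7 ± 14.1 CPM (SD, n = 3) in SKG, with no overlap (adjusted p = 0.959 from edgeR). Cd96, a receptor for nectin and nectin-like ligands, had 1952 to 2746 reads in BALB/c and 1647 to 2566 in SKG, so its libraries overlapped. Of the Klr and Ly49 receptors in the list, Klrb1a reached 10 reads in 4 pools and no other did so in more than 2. Klrd1 had 336, 0 and 0 reads in BALB/c against 0, 0 and 124 in SKG, and Klra1 had 218 and 140 in BALB/c replicates 2 and 3 and at most 1 elsewhere. Klra1, Klrb1a and Klrb1c were each at 0 in BALB/c replicate 1 and counted in the other 2 BALB/c pools.

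Of the signalling partners, 9 of 17 were tested, and none was without overlap. Hcst, which encodes the adaptor DAP10, was at 27.0 ± 12.0 CPM (SD, n = 3) in BALB/c and 24.1 ± 2.54 CPM (SD, n = 3) in SKG, with overlap. Cd247, the ITAM chain of the T-cell receptor, which can pair with the FcR gamma chain, had 8928, 5546 and 5327 reads in BALB/c against 7218, 9586 and 8646 in SKG, also with overlap. Tyrobp, the DAP12 adaptor of many NK receptors, had 63 reads in BALB/c replicate 3 and 0 in the other libraries. Among receptor chains that use the FcR gamma chain, Fcer1a had 0 reads in all libraries, and Fcgr3 had 0, 1 and 44 reads in BALB/c against 9, 2 and 385 in SKG. On the RPKM scale, Fcgr3 was at most 0.561 in BALB/c and reached 6.13 in SKG replicate 3, the SKG library with the highest Fcer1g.

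Of the chemokines and cytokines, 7 of 20 were tested, with 0 lacking overlap. Ccl3, Ccl1 and Tnf had no read in any library, Ccl4 had 42 and 22 in BALB/c replicates 2 and 3, and Ifng had 312 reads in BALB/c replicate 1 alone. Il4, the cytokine of the iNKT2 subset, had 174, 254 and 325 reads in BALB/c against 67, 136 and 374 in SKG, which overlap. Xcr1, the receptor of Xcl1, had 0, 0 and 128 reads in BALB/c against 129, 0 and 0 in SKG. Cadm1, the ligand of Crtam, had 4, 3 and 84 reads in BALB/c against 31, 2 and 496 in SKG, and 6 of the 8 genes in the list of Crtam partners were tested, none without overlap.

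Of the transcription factors and cytokine receptors, 14 of 24 were tested. T-bet (Tbx21) and Eomes, the factors that drive the effector programme of NK and iNKT1 cells, had 0 reads in all 6 libraries. Runx3, which the study names for this comparison on the same samples, was higher in every SKG library. It had 0, 0 and 5 reads in BALB/c against 60, 403 and 83 in SKG. Its adjusted p was 0.830 from edgeR and 0.00317 from DESeq2 without shrinkage. Ifngr1, a chain of the interferon-gamma receptor, was at 89.1 ± 25.7 CPM (SD, n = 3) in BALB/c and 162 ± 12.1 CPM (SD, n = 3) in SKG without overlap (edgeR: log2 fold change of 0.86 ± 0.24, standard error, and adjusted p of 0.734). Zeb2, a factor of terminal effector cells, was at 11.2 ± 5.67 and 3.82 ± 1.73 CPM, with adjusted p = 0.971 from edgeR.

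**Figure D3:**
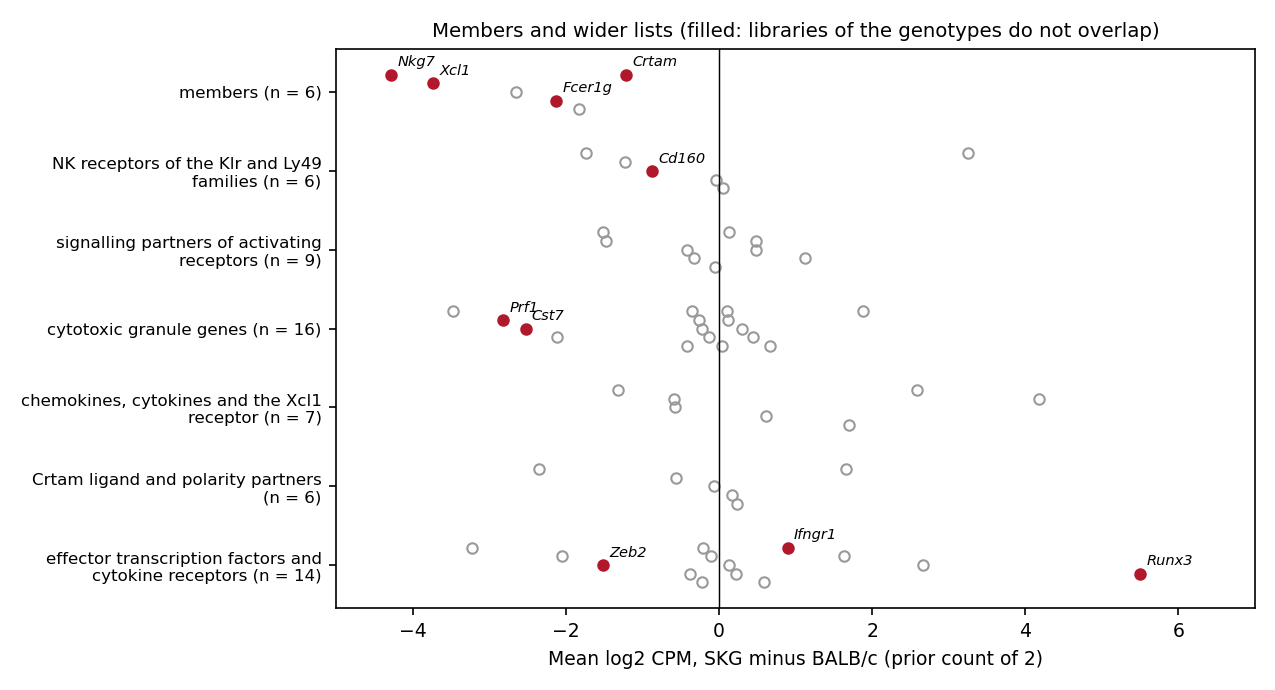
Difference of mean log2 CPM, SKG minus BALB/c, with a prior count of 2 (horizontal axis) for the 6 members and for the tested genes of 6 lists (rows, n = genes), with filled red points for genes without overlap between the genotypes. The 4 filled members lie left of 0, while the lists scatter on both sides of 0, with Prf1, Cst7, Cd160 and Zeb2 to the left and Runx3 and Ifngr1 to the right.

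Markers of other cells were counted beside the members. The summed level of 10 NK cell markers was 64.1 to 102 CPM in BALB/c and 8.43 to 58.0 CPM in SKG, without overlap. Prf1 made up most of it in the BALB/c libraries, and without Prf1, a sum added after the values were seen, it was 0 to 3.56 CPM in BALB/c and 0.546 to 7.22 CPM in SKG. The defining NK cell genes Ncr1 and Eomes were at 0 in all libraries, as were Gzmb and Klrg1. Of 10 markers of mature iNKT1 cells, Tbx21, Fasl and Klrc1 were at 0 in all libraries, and the sums overlapped at 149 to 291 CPM in BALB/c and 213 to 316 CPM in SKG. Il2rb made up most of these sums, with 146 to 273 CPM in BALB/c and 202 to 297 CPM in SKG. Ly6c2 of the same list was higher in every SKG library, at 4.17 to 15.1 CPM against 0.970 to 2.32 CPM.

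Sums of 6 gamma-delta T-cell markers were higher in SKG, at 35.0 to 87.6 CPM against 12.7 to 29.7 CPM in BALB/c, with Trdv4 at 0. Of this list only Tcrg-C2 and Tcrg-C4 were higher in every SKG library, and in SKG replicate 3 they reached 30.1 and 37.2 CPM. Trdc, the delta constant gene, overlapped at 7.79 to 21.5 CPM in BALB/c and 12.6 to 16.9 CPM in SKG, and Tcrg-C1 and Sox13 overlapped as well. Myeloid markers, which bear on Fcer1g because myeloid cells express it strongly, summed to 3.37 to 53.7 CPM in BALB/c and 0.596 to 118 CPM in SKG, with Cd14 at 0. Lyz2 made up the whole sum of 53.7 CPM in BALB/c replicate 1, where the other markers of the list had 0 reads. In SKG replicate 3 Lyz2 was at 107 CPM and Fcgr3 at 10.6 CPM, and Csf1r, Itgam, Cd14, Tyrobp and Spi1 were at 0. For SKG replicates 1 to 3 the myeloid sums were 0.596, 3.52 and 118 CPM beside Fcer1g levels of 2.23, 1.34 and 4.84 CPM. The highest SKG values fell in the same library, and SKG replicates 1 and 2 were in opposite order. For BALB/c replicates 1 to 3 the sums were 53.7, 5.10 and 3.37 CPM beside Fcer1g at 12.5, 10.4 and 9.76 CPM, in the same order. Mast cell and basophil markers, which also accompany Fcer1g, summed to 0.0809 to 1.11 CPM in BALB/c and to 0 in SKG, with Fcer1a and Gata2 at 0 in all libraries. Sums of dendritic markers and of B-cell markers overlapped and were at most 7.47 and 8.38 CPM. The 10 markers of stage 0 cells themselves summed to 6691 to 7660 CPM in BALB/c and 5306 to 6162 CPM in SKG, without overlap. Without Egr1 and Egr2, a sum added after the values were seen, the ranges were 3679 to 4102 and 3588 to 4229 CPM and overlapped. Sox4 of the same list was higher in SKG, at 557 to 660 CPM against 186 to 458 CPM. Cd69, which was used in the sort, was lower in every SKG library, at 152 to 250 CPM against 312 to 391 CPM in BALB/c. What part any of these cells had in the levels of the members was not tested.

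**Figure D4:**
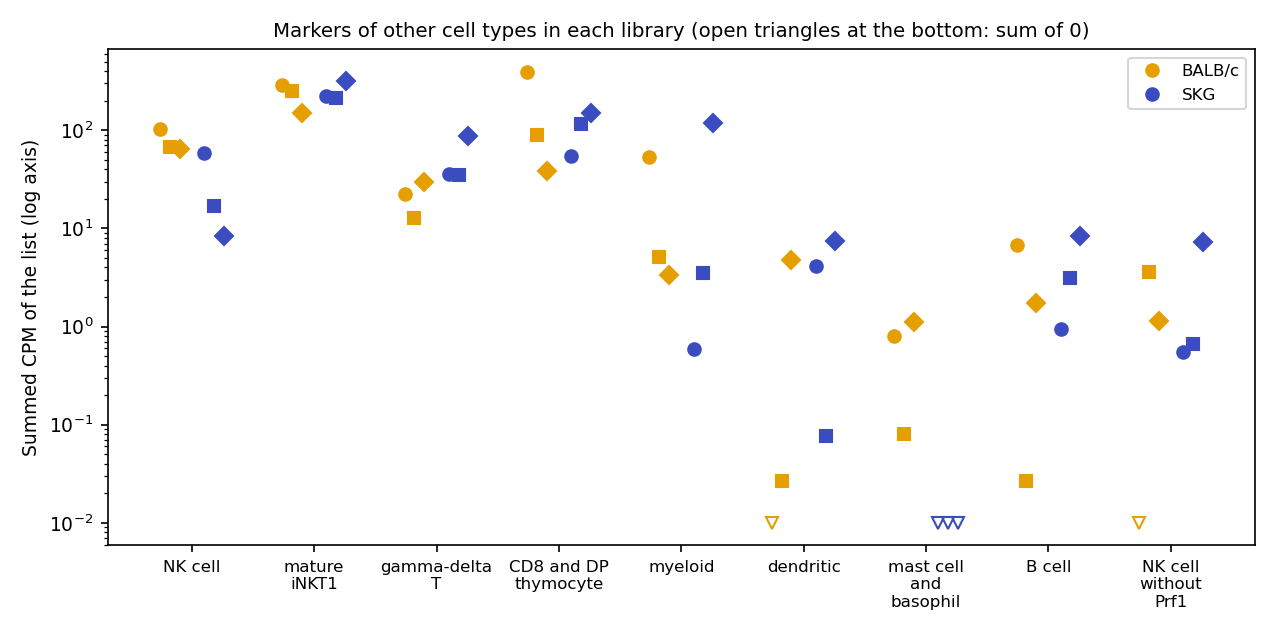
Summed CPM (log axis) of each list of cell type markers in the 3 BALB/c (orange) and 3 SKG (blue) libraries, with circle, square and diamond for replicates 1, 2 and 3 and open triangles for sums of 0. NK cell markers are higher in BALB/c as a whole but overlap without Prf1. The gamma-delta sum is higher in SKG, although Trdc alone overlaps. CD8 and double-positive thymocyte markers peak at 394 CPM in BALB/c replicate 1.

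The genes whose log2 CPM followed each member most closely over the 6 libraries are given by Pearson's r as a description. For Xcl1 these were Gm22121, Hist1h3a and Gm10277 (r from 0.988 to 0.994), each with at least 13 reads in every BALB/c library and at most 1 in any SKG library. For Crtam they were Frmpd1, Gm10327 and Sarnp (0.992 to 0.995), and for Fcer1g Tmem181b-ps, Tpt1-ps3 and Dgat1 (0.988 to 0.998). For Nkg7 they were AI480526, Adgrg3 and Gm8055 (0.983 to 0.996), and Adgrg3 fell to 5 reads in SKG replicate 2, the library in which Nkg7 had none. For Klrb1c they were Hddc2, Derl3 and Spsb2 (0.987 to 0.992). The profile of Gzma was followed by Cbfa2t3, Shpk and Trim16 (0.993 to 0.996), and Shpk had 870, 0 and 617 reads in BALB/c against 1, 925 and 1 in SKG, the same pools as Gzma. With 6 libraries, between 20 (Klrb1c) and 60 (Crtam) of the 12312 genes tested had an r above 0.95, and all points share their libraries and depth. No other member was among the closest 3 genes of any member. Among Xcl1, Fcer1g, Crtam and Nkg7, all lower in SKG, r ran from 0.733 (Crtam with Nkg7) to 0.957 (Xcl1 with Crtam). Klrb1c and Gzma had r between -0.190 and 0.307 with the other members.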

How the data were processed

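Stage 0 iNKT cells of 3 BALB/c and 3 SKG pools were compared by RNA-Seq. The authors aligned 50-nt reads with Hisat2 (2.1.0) to GRCm38 and deposited raw counts of reads over exons per gene (featureCounts of Subread 1.4.4, Ensembl annotation, mapping quality of at least 10, no strand). Library preparation is given differently by the labels (SMART-Seq v4, 18 preamplification cycles) and by the methods, which name another kit. A table of the authors' own DESeq2 comparison was not used.

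All 6 libraries were fitted together in R 4.3.3 by genotype. Genes were filtered with filterByExpr, scaled with TMM and tested with edgeR 4.0.16 (quasi-likelihood F test, Benjamini-Hochberg over 12312 genes). A standard error of an edgeR fold change is its size divided by the root of F. Calls needed a change of 1.5 times or more and an FDR below 0.1. These are the thresholds of the study, which applied them with DESeq2 and reported genes that differed between the genotypes. Alternatives used limma 3.58.1 and DESeq2 1.42.0. Exact intervals are Clopper-Pearson at 95% and cover counting error only. Exon lengths and positions come from GENCODE M21 (GRCm38), which is not the annotation used for counting, and promoters from RefSeq.

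Members and lists were chosen with earlier results of these data known. Genes named are the members, list genes without overlap or called by a tool, some abundant list genes, markers, and the 3 genes closest to each member. The most abundant genes of several lists, such as Vav1, Mif, Cdc42 and Gata3, are not described. Cd96, Hcst, Cd247, Il4 and genes near 0 were chosen after their values were seen.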

Additional observations from a re-analysis of the deposited data

How the results depend on the processing

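The difference of mean log2 CPM (SKG minus BALB/c) kept its sign for each of the 6 members under other scaling factors, filters, prior counts, fits and with any library left out. Xcl1 and Klrb1c have no value under the stricter filter (50 reads in 3 libraries), which they did not pass. Values that moved by more than the spread between replicates were those of Xcl1 (-3.74) with DESeq2 (-5.95, or -2.66 with shrunken fold changes) and with a prior count of 0.5 (-4.97), that of Nkg7 (-4.28) with shrunken fold changes (-1.40), and that of Crtam (-1.21) with the library number as a block (-1.52). With that block, BALB/c replicate 3 and SKG replicate 1 share their number with no other library. The value of Crtam there rests on the libraries numbered 2 and 3 alone. The cause of the other shifts was not tested. Of the wider genes edgeR called 0. With DESeq2, which called 370 genes of the whole table, 4 were called (Cst7, Runx3 and, without an edgeR test, Klra1 and Stx11), and 2 with shrunken fold changes (Cst7 and Runx3). The 6 wider genes without overlap became 13 to 18 with 1 library left out (13 without BALB/c replicate 3, 18 without BALB/c replicate 2), where fewer libraries leave fewer ways to overlap. The number in the titles as a replicate block called 0 wider genes, as did the library number. Deviations from the genotype means correlated at -0.145 to 0.00289 between libraries that shared a number, so the libraries were not treated as paired.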
